A study of Mus musculus with 17 samples.

Results

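Chemokines are small secreted or membrane-bound proteins that guide leukocytes through G protein-coupled receptors, and 10 of their genes were followed in the aging mouse hippocampus. The genes were Ccl2, Ccl3, Ccl4, Ccl6, Ccl9, Ccl12, Cxcl10, Cxcl12, Cxcl16 and Cx3cl1, chosen by name and found by their Ensembl identifiers among the 38355 genes counted. All 10 were in every count table. Another 30 chemokine genes and 24 chemokine receptor genes served as the wider pathway.

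RNA of hand-dissected hippocampus came from untreated wild type C57BL/6J mice, and polyadenylated RNA was sequenced in 17 libraries. In the single-end experiment, mice of 24 months (24M) were set against mice of 3 months (3M). In a separate paired-end experiment, mice of 29 months (29M, 3 samples) were set against a 3M group of that experiment (3 samples). The labels do not say whether the mice of the 3M groups differ. The 29M mice had been bought as aged animals and were then housed by the study for some months, so age, library type and housing cannot be told apart between the 2 aged groups. Each aged group was compared with the 3M group of its own experiment. In the single-end experiment, 24M replicates 1 and 4 differed by less than the sampling noise (ratio of observed to counting variance 0.406, against 1.23 or more in the others of the 136 pairs compared) and were counted as 1 sample, which left 5 samples at 24M beside 5 at 3M. Counts on genes ranged from 19144461 to 28438296 per library in the single-end 3M group, from 9213474 to 19756411 at 24M, from 10977976 to 15054972 in the paired-end 3M group and from 10991389 to 13563541 at 29M. Levels are given as CPM, the counts per 1000000 reads on genes of the sample, with totals scaled by TMM factors. A count of 3 corresponds to between 0.106 and 0.323 CPM in these samples, and 8 of the 10 genes averaged below 4 CPM in every group, so the depth limits what can be said of them. The 10 markers of hippocampal subfields were present in every group, with mean sums between 1109 and 1191 CPM. Single-end 3M replicate 4 stood apart in the summed striatal markers (709 CPM, the others of its group between 229 and 293) and immediate early genes (1365 CPM, the others between 687 and 967).

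Chemokines are named for the spacing of their first cysteines (CC, CXC and CX3C families). In the brain, Cx3cl1 (fractalkine) is made mainly by neurons and its receptor Cx3cr1 is carried by microglia, Cxcl12 acts on Cxcr4 and on the scavenging receptor Ackr3, and most CC chemokines and Cxcl10 are low in healthy tissue and are induced by inflammatory signals. In bulk tissue, a change in the number of cells that make a transcript and a change in its amount per cell cannot be told apart.

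Of the 10 genes, 7 lie on chromosome 11 of GRCm38. Ccl9 (83572919 to 83578636, minus strand), Ccl6 (83587882 to 83593087, minus strand), Ccl3 (83647844 to 83649355, minus strand) and Ccl4 (83662584 to 83664683, plus strand) lie side by side. Ccl2 (82035571 to 82037453) and Ccl12 (82101845 to 82103400), both on the plus strand, lie together elsewhere on that chromosome, and Cxcl16 (70453983 to 70459984, minus strand) stands apart. Cxcl10 lies on chromosome 5 (92346638 to 92348889, minus strand), Cxcl12 on chromosome 6 (117168535 to 117181367, plus strand) and Cx3cl1 on chromosome 8 (94772009 to 94782427, plus strand). Cxcl10 overlaps Art3, Cxcl16 overlaps Zmynd15, Ccl6 overlaps E230016K23Rik and Ccl2 overlaps Gm17268, each on the opposite strand. The library kit does not mark strand, so reads of overlapping genes cannot be told apart where they overlap. Summed over all libraries, Art3 held 742 counts, Zmynd15 128, E230016K23Rik 6 and Gm17268 0.

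A promoter window of 250 bases before to 50 after the transcription start was at hand for 7 of the 10 genes (RefSeq, GRCm38.p6). The windows of Cxcl10, Ccl9 and Ccl6 are printed because Cxcl10 held the most motif matches, and because Ccl6 and Ccl9 are neighbours of which Ccl6 alone was called at 24M. Capitals mark matches, on either strand, to 5 short motifs. These were ISRE, the interferon response element (GAAA, any 2 bases, GAAA; in 3.44% of 32851 RefSeq windows), NF-kB (GGG, any 3 bases, TTCC; 5.56%), GAS, the gamma-interferon activated site (TTCNNNGAA, 8.3%), AP-1 (TGANTCA, 7.81%) and PU.1, a factor of myeloid cells (GAGGAAGT, 3.2%), and no match overlapped another. The Cxcl10 window (chr5:92348840-92349139, minus strand) held an ISRE match starting at -213, NF-kB matches at -159 and -104 and an AP-1 match at -74, counted from the start site. The Ccl9 window (chr11:83578587-83578886, minus strand) held an AP-1 match at -53 and an NF-kB match at -35. The Ccl6 window (chr11:83593038-83593337, minus strand) held none, and no match to these letters lay in the windows of Ccl3, Ccl12, Cxcl12 and Cx3cl1. A match describes letters and is not a bound site.
Cxcl10: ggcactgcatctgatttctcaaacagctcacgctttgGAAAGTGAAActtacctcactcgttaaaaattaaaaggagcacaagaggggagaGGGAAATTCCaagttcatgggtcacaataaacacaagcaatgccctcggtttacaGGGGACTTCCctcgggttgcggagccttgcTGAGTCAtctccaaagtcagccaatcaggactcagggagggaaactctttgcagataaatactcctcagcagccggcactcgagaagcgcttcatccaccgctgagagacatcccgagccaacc
Ccl9: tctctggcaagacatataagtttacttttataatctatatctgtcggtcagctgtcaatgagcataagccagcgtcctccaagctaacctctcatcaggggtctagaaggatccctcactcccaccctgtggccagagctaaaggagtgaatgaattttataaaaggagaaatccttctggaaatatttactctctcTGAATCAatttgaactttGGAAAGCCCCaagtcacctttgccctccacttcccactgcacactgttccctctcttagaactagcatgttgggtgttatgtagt
Ccl6: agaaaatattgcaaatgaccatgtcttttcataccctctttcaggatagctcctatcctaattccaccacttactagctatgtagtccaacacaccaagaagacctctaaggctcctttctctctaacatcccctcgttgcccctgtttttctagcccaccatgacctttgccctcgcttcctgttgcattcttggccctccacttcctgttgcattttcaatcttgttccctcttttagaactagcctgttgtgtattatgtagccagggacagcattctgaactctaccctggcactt

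Levels differed widely among the 10 genes. Per kilobase of exon, Cx3cl1 stood first in every group, at 184 ± 14.2 CPM per kb in the single-end 3M samples (SD, n = 5), 143 ± 3.06 at 24M (n = 5), 146 ± 4.25 in the paired-end 3M samples (n = 3) and 131 ± 4.53 at 29M (n = 3). Cxcl12 came next, at 8.07 ± 0.996, 10.7 ± 1.52, 7.57 ± 0.257 and 8.69 ± 1.03 CPM per kb in the same order of groups. In each group, every sample of Cx3cl1 lay above every sample of Cxcl12, and every sample of Cxcl12 above those of the gene ranked next. The other 8 genes averaged below 1 CPM per kb in both 3M groups. Most neighbours in their order overlapped between samples; the exceptions were Ccl9, above Ccl4 in all 5 single-end 3M samples, and Ccl9, above Ccl2 in all 3 samples at 29M. Ccl2 was the lowest of the 10 at 24M, in the paired-end 3M group and at 29M, and Cxcl10 had the lowest mean in the single-end 3M group. Without replicate 3 of that group, Ccl2 averaged 0.0335 CPM per kb there and was the lowest in all 4 groups. Without length scaling, Cx3cl1 made up 89.4% to 92.5% of the summed CPM of the 10 genes in the single-end 3M samples and 81.9% to 86.9% at 24M, and 89.2% to 89.7% in the paired-end 3M samples and 85.5% to 87.9% at 29M.

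**Figure D1:**
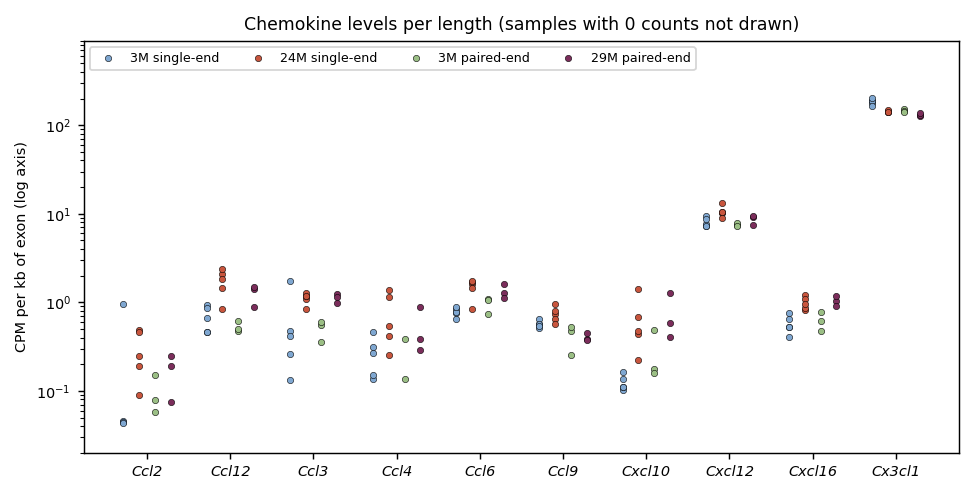
CPM per kilobase of exon on a log axis for each chemokine, with 1 point per sample and 1 colour per group; samples with 0 counts are not drawn. Cx3cl1 lies above Cxcl12 and Cxcl12 above the rest in every group, while the other 8 genes largely overlap.

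To ask which chemokine transcripts differ with age, each aged group was compared with its 3M group in edgeR (quasi-likelihood test, p-values adjusted by Benjamini-Hochberg over all genes tested). Calls required both an adjusted p no greater than 0.05 and a log2 fold change of 0.5 or more in size. At 24M, Ccl6 and Cxcl16 rose. These are 2 of the 10 genes and 2 of the 6 that passed the filter on low counts, where 1.34% of all 15683 genes tested were called higher. None was called lower, against 0.638% of all genes, and 5 of the 6 had an unadjusted p under 0.05, against 26.1%. DESeq2 called 4 higher, namely Ccl6, Ccl12, Cxcl10 and Cxcl16, against 1.71% of genes. At 29M, none of the 6 genes that passed the filter was called, where 1.34% of 15097 genes were called higher and 0.113% lower. Of the 6, 4 had an unadjusted p under 0.05, against 17.3% of genes. These 4 include Cxcl10, which passed the filter through its high 29M samples, so its p adds no support. DESeq2 called none of the members at 29M, against 0.775% of genes, and edgeR without the filter called 2 (Cxcl10 and Cxcl16), against 1.5% of genes. By the adjusted p alone, 3 members were higher and 1 lower at 24M (Ccl6, Cxcl12, Cxcl16 and Cx3cl1), against 3.21% and 2.37% of genes (5.58% in either direction). By that rule none passed at 29M, against 2.32% and 0.662% (2.99% in either direction).

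**Figure D2:**
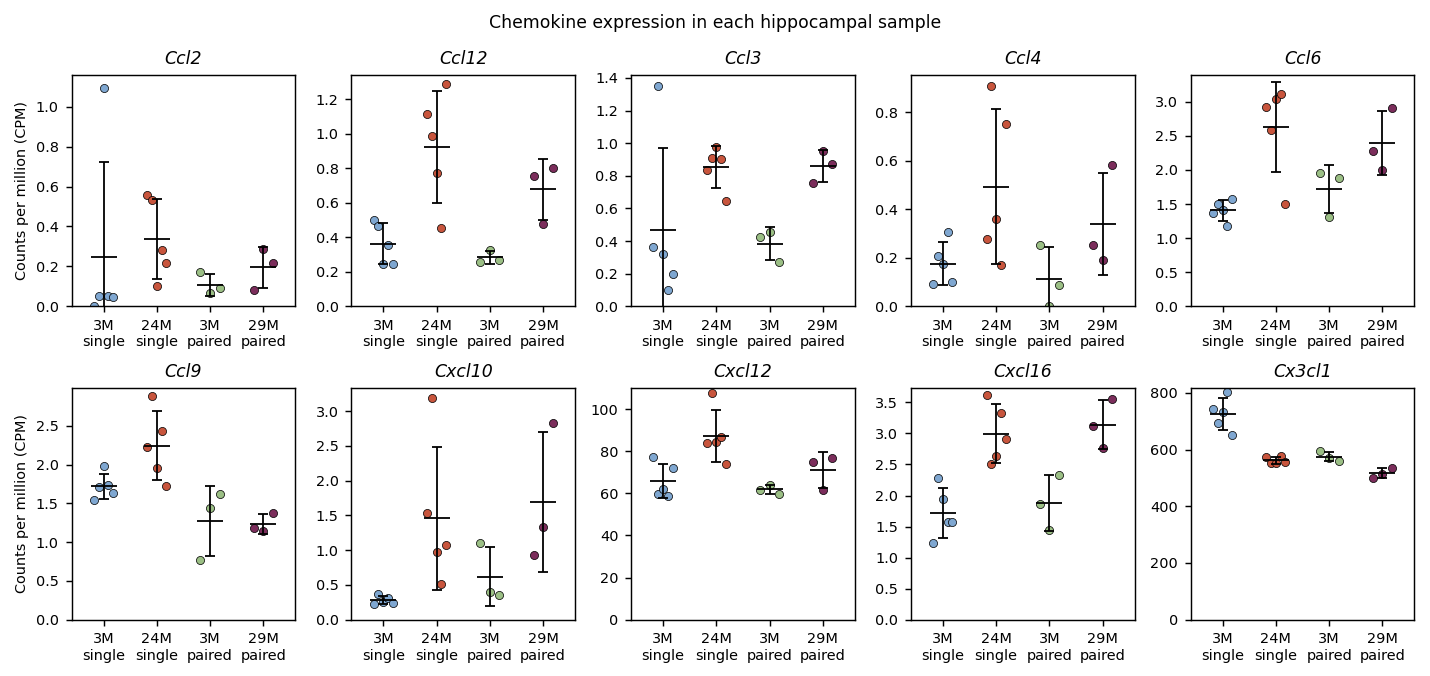
CPM of each chemokine in each sample, on linear axes that start at 0 and differ between panels; points are samples, the long bar is the mean and the whiskers are the SD. Cx3cl1 is lower and Cxcl16 higher in all aged samples of both experiments than in their 3M samples, while Cxcl10 spreads widely among aged samples.

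Cx3cl1, the neuronal ligand of Cx3cr1, had lower values in the aged samples of both experiments, by less than the fold threshold, and passed the adjusted p at 24M and not at 29M. It stood at 742, 694, 734, 802 and 653 CPM in single-end 3M replicates 1 to 5, and at 573, 553, 552, 577 and 554 CPM in the 24M samples (replicates 1 and 4 together, then 2, 3, 5 and 6). In the paired-end experiment it stood at 593, 571 and 560 CPM at 3M and at 498, 515 and 534 CPM at 29M. All aged samples lay below all 3M samples at both ages, and the 24M samples varied less among themselves than their 3M samples did (SD 12 against 56 CPM). Among all genes tested, 3.42% had all aged samples below at 24M and 10.5% at 29M. Its log2 fold change was -0.37 (SE 0.05, adjusted p = 0.00278 by edgeR's quasi-likelihood test) at 24M, a ratio of mean CPM of 0.775. At 29M it was -0.16 (SE 0.04, adjusted p = 0.0612), a ratio of 0.897. Of 13 alternatives at 29M, 2 passed the adjusted p (DESeq2 at 0.00423 and edgeR without the filter at 0.00334), and the highest was 0.348, with all 4 groups in 1 fit. The fit of the difference between the 2 effects gave 0.21 on the log2 scale (SE 0.08, adjusted p = 0.394). None of the 12 neuronal marker genes was called at either age, though 1 was lower at 29M by the adjusted p alone and 9 of 12 had log2 fold changes below 0 there. Their summed level was 10257 CPM at 3M and 10606 at 24M, and 9598 at 3M and 9361 at 29M. The immediate early genes, which respond to neuronal activity, summed to 935 CPM in the single-end 3M samples and 631 at 24M, with 3M replicate 4 at 1365 CPM, the sample that also held the most Cx3cl1; 5 of the 17 were called lower at 24M. For 29M and its controls they summed to 656 CPM at 3M and 676 at 29M, and none was called. Without single-end 3M replicate 4, the immediate early genes averaged 828 CPM at 3M and the log2 fold change of Cx3cl1 at 24M was -0.33 (adjusted p = 0.00391), and over all samples left out in turn it ranged from -0.41 to -0.33. The part of these markers in the Cx3cl1 result was not tested.

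Its receptor Cx3cr1, the microglial fractalkine receptor, had higher values in the aged samples. It stood at 64.6, 72.2, 61.7, 54.5 and 62.9 CPM in the single-end 3M samples and at 74.8, 74.0, 72.0, 72.3 and 70.4 CPM at 24M, so that only 3M replicate 2 reached into the range of the 24M samples. In the paired-end experiment, the 3M samples stood at 56.5, 56.9 and 55.5 CPM and the 29M samples at 68.6, 75.0 and 73.2 CPM, with no overlap. Of all genes tested, 11.9% had all 29M samples above their 3M samples. The log2 fold change of Cx3cr1 was 0.20 (SE 0.06, adjusted p = 0.0747) at 24M and 0.36 (SE 0.05, adjusted p = 0.00234) at 29M by edgeR's quasi-likelihood test, both under the fold threshold. The 18 microglial marker genes summed to 592 ± 32.5 CPM at 3M and 741 ± 24.9 at 24M (SD, n = 5 each), and to 545 ± 12.3 and 727 ± 21.4 CPM at 3M and 29M (n = 3 each), with no overlap between samples at either age. By the adjusted p alone 13 of these markers were higher at 24M and 12 at 29M, of which 4 and 6 also reached the fold threshold; Csf1r was the most abundant. Their part in the levels of the microglial chemokines and receptors was not tested.

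Ctss, cathepsin S, a microglial protease known to cleave Cx3cl1, was the gene called among the 9 shedding and cleavage genes at both ages. Its log2 fold change was 0.90 (SE 0.09, adjusted p = 0.000109) at 24M and 0.82 (SE 0.05, adjusted p = 3.43e-06) at 29M. The sheddases Adam10, at 0.24 and -0.02 on the log2 scale, and Adam17, at 0.06 and 0.01, were not called. By the adjusted p alone, 1 of the 8 shedding and cleavage genes tested was lower at 24M. Mmp12, a macrophage metalloproteinase, was too low to be tested with the filter, and without it had log2 fold changes of 4.89 (adjusted p = 5.5e-05) and 3.35 (adjusted p = 0.00262) in edgeR's quasi-likelihood test. With so few counts, these fitted values are not exact folds.

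Cxcl16, the other transmembrane chemokine and the ligand of Cxcr6, rose at 24M. It stood at 1.23, 2.29, 1.94, 1.58 and 1.58 CPM in the single-end 3M samples (27 to 55 counts) and at 3.62, 2.50, 2.63, 3.34 and 2.90 CPM in the 24M samples (27 to 59 counts). The paired-end 3M samples stood at 1.87, 1.44 and 2.34 CPM and the 29M samples at 3.11, 2.76 and 3.56 CPM. The aged samples did not overlap the 3M samples at either age, as in 3.15% of all genes tested at 24M and 11.9% at 29M. Cxcl16 had a log2 fold change of 0.80 (SE 0.18, adjusted p = 0.0279) at 24M and 0.78 (SE 0.23, adjusted p = 0.0963) at 29M by edgeR's quasi-likelihood test, and the 2 effects differed by -0.03 (SE 0.30, adjusted p = 0.983). The call at 24M was lost without 24M replicate 2 or 5 and without single-end 3M replicate 1 or 4. The pair of 24M replicates 1 and 4 left out, thinning all libraries to the smallest total, and the replicate number as a block (adjusted p = 0.188) also lost it. Without single-end 3M replicate 4 the log2 fold change was 0.77 (adjusted p = 0.0555), and without 24M replicate 2 it was 0.86 (adjusted p = 0.0548). Its log2 fold change stayed between 0.63 and 0.90 over all 20 alternatives. Its receptor Cxcr6, carried by activated T cells, held 2 to 3 counts in each single-end 3M sample and 4 to 10 at 24M, so it was not tested with the filter. Without it the log2 fold change was 1.98 (SE 0.46, adjusted p = 0.0182) at 24M and 1.83 (SE 0.95, adjusted p = 0.372) at 29M.

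The genes whose log2 CPM over the 16 samples, centred within each experiment, was most like that of Cxcl16 were Lyz2 (Pearson r = 0.929), Runx1 (0.915), Mpeg1 (0.888), Anxa3 (0.883) and Abca8a (0.882). Both genes of a pair were measured in the same libraries, whose age, library type and depth differ between samples, and r was lower within the 8 aged samples, where r was 0.428 for Lyz2, 0.53 for Runx1 and 0.511 for Anxa3, and lay near 0 for Mpeg1 (-0.00959) and Abca8a (-0.0377). Within the 8 3M samples r lay between 0.733 and 0.845. The 5 genes had the highest r among 14898 over all samples, a choice that also raises r within the aged or the 3M samples.

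Cxcl12, a homeostatic chemokine of vessels, meninges and neurons, was higher at 24M by less than the fold threshold. It stood at 77.1, 59.8, 62.0, 59.0 and 72.2 CPM in the single-end 3M samples and at 83.8, 108, 84.6, 86.7 and 73.8 CPM in the 24M samples. In the paired-end experiment it stood at 61.6, 64.1 and 59.9 CPM at 3M and at 74.9, 61.4 and 77.0 CPM at 29M. The groups overlapped through 24M replicate 6 and 29M replicate 2. On the log2 scale the fold change was 0.40 (SE 0.10, adjusted p = 0.0343) at 24M and 0.20 (SE 0.07, adjusted p = 0.181) at 29M by edgeR's quasi-likelihood test, and the effects differed by -0.21 (SE 0.15, adjusted p = 0.647). At 29M Cxcl12 passed the adjusted p in 2 of 13 alternatives. These were the fit without 29M replicate 2 (0.29, adjusted p = 0.00999) and that without the filter (0.20, adjusted p = 0.0340). At 24M it passed the adjusted p in 12 of 20 alternatives. It failed with the replicate number as a block (adjusted p = 0.154, the highest) and with the 24M pair left out (adjusted p = 0.068). It also failed without 24M replicate 2, 3 or 5 and without single-end 3M replicate 2, 3 or 4. Among these single samples left out, the adjusted p was highest without 24M replicate 2 (0.0853). Its receptors were not called: Cxcr4 went from 4.02 ± 0.632 to 3.5 ± 0.326 CPM at 24M (n = 5 each) and from 3.56 ± 0.513 to 2.91 ± 0.273 CPM at 29M (n = 3 each), and Ackr3 from 16.5 ± 1.61 to 15.5 ± 0.809 and from 14.7 ± 0.775 to 12.4 ± 0.279 CPM. The vascular markers beside it summed to 280 and 295 CPM (endothelial cells) and to 233 and 279 CPM (pericytes and smooth muscle) at 3M and 24M, and the meningeal fibroblast markers to 398 and 466 CPM. Single markers went in both directions at 24M. Of the 8 meningeal fibroblast markers, Ogn (log2 fold change 0.96) and Lum (0.85) were called higher, of the 8 pericyte and smooth muscle markers Rgs5 (0.40) was higher by the adjusted p alone, and of the 10 endothelial markers Cldn5, a tight junction protein, was called lower (-0.60). At 29M none of these markers passed the adjusted p, and the same lists summed to 250.8, 225 and 404 CPM, against 264, 236 and 385 CPM at 3M. Their part in the Cxcl12 values was not tested.

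Ccl6 and Ccl9 are neighbouring CC chemokines of myeloid cells that act on Ccr1. Ccl6 rose at 24M. It stood at 1.36, 1.51, 1.41, 1.17 and 1.58 CPM in the single-end 3M samples (23 to 40 counts) and at 2.92, 2.58, 3.04, 3.11 and 1.5 CPM in the 24M samples (14 to 59 counts). Of the 24M samples, 4 lay above all 3M samples, and replicate 6, the library with the fewest counts, lay among them. The log2 fold change was 0.93 (SE 0.19, adjusted p = 0.0175 by edgeR's quasi-likelihood test), a ratio of mean CPM of 1.87, and it was called in 19 of 20 alternatives. At 29M, Ccl6 stood at 2.27, 1.997 and 2.91 CPM against 1.95, 1.31 and 1.89 CPM at 3M, without overlap, as in 11.9% of all genes tested. There its log2 fold change was 0.52 (SE 0.25, adjusted p = 0.311), and the difference between the effects was -0.43 (SE 0.32, adjusted p = 0.646). Over 13 alternatives the value at 29M ranged from 0.26 (after thinning) to 0.63 (without paired-end 3M replicate 1), and Ccl6 was called in 0 of them.

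Ccl9 did not pass the test at either age. It stood at 1.55, 1.71, 1.98, 1.73 and 1.63 CPM in the single-end 3M samples and at 2.22, 2.88, 1.96, 2.43 and 1.72 CPM in the 24M samples. In the paired-end experiment it stood at 0.764, 1.44 and 1.62 CPM at 3M and at 1.18, 1.14 and 1.38 CPM at 29M. The groups overlapped at both ages. Its log2 fold change was 0.38 (SE 0.16, adjusted p = 0.155) at 24M and -0.04 (SE 0.31, adjusted p = 0.963) at 29M by edgeR's quasi-likelihood test. Their receptor Ccr1 held at most 10 counts in any sample and was not tested.

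The genes most like Ccl6 over the 16 samples were Krt9 (r = 0.911), Me3 (0.89), Plcg2 (0.877), 9530026P05Rik (0.877) and Onecut1 (0.875). They had the highest r among 14898 genes, and that choice over all samples also raises r within the aged or the 3M samples. Plcg2 is a phospholipase of myeloid receptor signalling and Krt9 is a keratin. Within the 8 aged samples these values were 0.84, 0.866, 0.827, 0.808 and 0.834, and within the 8 3M samples 0.512, 0.813, 0.906, 0.347 and 0.489, in the same order. With at most 59 counts of Ccl6 in a sample, these are descriptions of few reads.

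**Figure D3:**
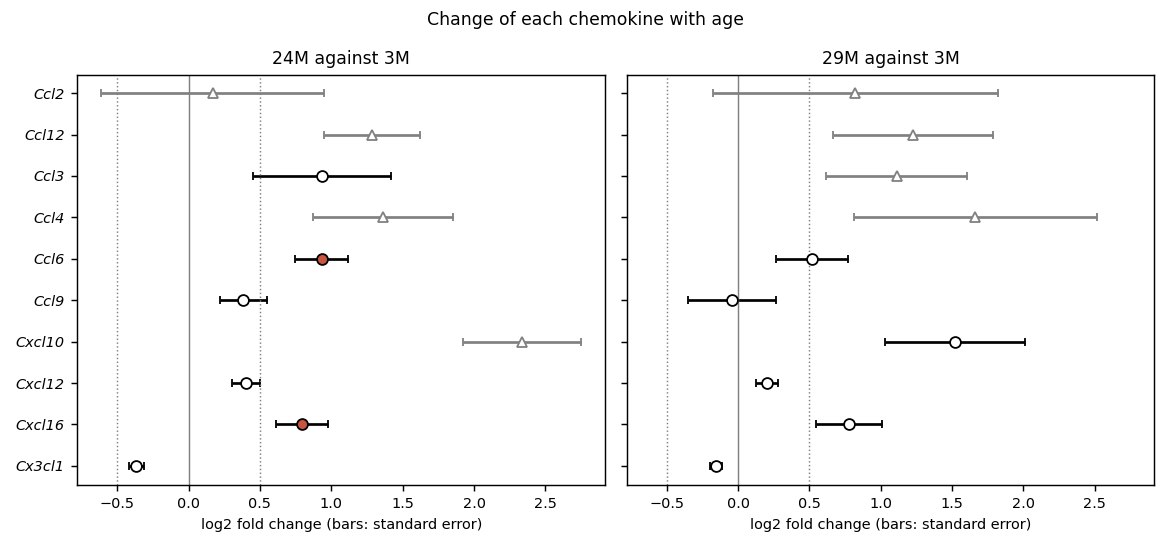
log2 fold change of each chemokine at 24M and 29M against 3M, with standard errors as bars. Circles are genes tested with the filter on low counts (filled where called), grey triangles are genes that did not pass it, taken from the fit without the filter, and dotted lines mark 0.5 and -0.5; Ccl6 and Cxcl16 at 24M are the called genes.

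Cxcl10, an interferon-induced ligand of Cxcr3 that attracts T cells, had a ratio of mean CPM between 24M and 3M above that of the other members with all samples kept, and below that of Ccl2 (8.87) without single-end 3M replicate 3. It stood at 0.227, 0.364, 0.247, 0.306 and 0.247 CPM in the single-end 3M samples (5 to 7 counts) and at 1.53, 3.19, 0.979, 0.509 and 1.08 CPM in the 24M samples (22, 42, 19, 9 and 10 counts). The lowest 24M sample exceeded the highest 3M sample, as in 3.15% of all genes tested, and the ratio of mean CPM was 5.23. The gene did not pass the filter on low counts, so it had no test of its own in the comparison as set. Without the filter, edgeR's quasi-likelihood test gave a log2 fold change of 2.33 (SE 0.41, adjusted p = 0.00308), with 1% of genes called higher, and DESeq2 an adjusted p of 0.000126. Over the alternatives that tested it the adjusted p reached 0.0406, but the filter lets in a gene that is high in 1 group alone, so those that kept the filter add no support. The highest sample, replicate 2, did not decide the order of the groups, since the other 4 samples at 24M also lay above all 3M samples. In the paired-end experiment, the 3M samples stood at 1.10, 0.393 and 0.360 CPM and the 29M samples at 0.925, 1.33 and 2.83 CPM. There the groups overlapped, because 3M replicate 1 held 13 counts and 29M replicate 1 held 11. The log2 fold change was 1.52 (SE 0.49, adjusted p = 0.122) at 29M, and without the filter 1.51 (SE 0.36, adjusted p = 0.00165), while DESeq2 gave an adjusted p of 0.321. Single libraries moved the value, to 0.88 (adjusted p = 0.47) without 29M replicate 3 and to 2.18 (adjusted p = 0.0625) without paired-end 3M replicate 1. The 2 effects differed by -0.83 (SE 0.79, adjusted p = 0.736). With 1 sample left out this difference ranged from -1.47 (without 29M replicate 3) to -0.17 (without paired-end 3M replicate 1). Cxcr3 held at most 5 counts in any sample.

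Cxcl10 is itself induced by interferon, and 32 other interferon-stimulated genes were set beside it. At 24M, 11 of the 31 tested were called higher and none lower, and their median log2 fold change was 0.54. At 29M, 21 of 30 were called higher and none lower, and the median was 0.89. Ifit3, an antiviral protein, had log2 fold changes of 1.55 (SE 0.27) at 24M and 1.70 (SE 0.24) at 29M, though reads shared with its near-identical copy Ifit3b could be split between them. Trim30a stood at 1.44 (SE 0.20) and 1.48 (SE 0.21), and Rtp4 at 1.04 (SE 0.25) and 2.09 (SE 0.26). Oasl2 stood at 1.10 (SE 0.28) and 1.51 (SE 0.18), Bst2 (tetherin) at 1.02 (SE 0.26) and 1.55 (SE 0.23), and Ifi27 at 0.64 (SE 0.13) and 0.60 (SE 0.08), all called at both ages. Ddx58, which encodes the RNA sensor RIG-I, stood at 0.54 (SE 0.15) and 1.02 (SE 0.14) and was called at both ages. At 24M, the calls of Oasl2, Rtp4, Ddx58 and Bst2 were each lost without 24M replicate 2, without single-end 3M replicate 1, 3 or 4, and with the 24M pair left out, and Ddx58 was called in 8 of 20 alternatives. At 29M, the calls of Oasl2 (adjusted p = 0.0586) and Ifi27 (adjusted p = 0.110) were lost with all 4 groups in 1 fit.

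Sample by sample, the highest Cxcl10 and the highest sum of these genes fell on the same sample in some groups and not in others. Cxcl10 held 4 to 42 counts in a sample, so these orders rest on few reads, and the relation was not tested. At 24M, replicate 2 was highest in both, at 3.19 CPM of Cxcl10 and 490 CPM of the summed list, and replicate 2 also carried the most hemoglobin RNA, with 544 CPM of summed blood genes. At 29M, replicate 1 had the highest sum (431 CPM) and the lowest Cxcl10 (0.925 CPM), while replicate 3 stood at 420 and 2.83 CPM. In the paired-end 3M group, replicate 1 had the most Cxcl10 (1.10 CPM) and the lowest sum (205 CPM). Single-end 3M replicate 2 had the highest sum of its group (324 CPM, the others between 199 and 226) and the highest Cxcl10 of its group (0.364 CPM).

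**Figure D4:**
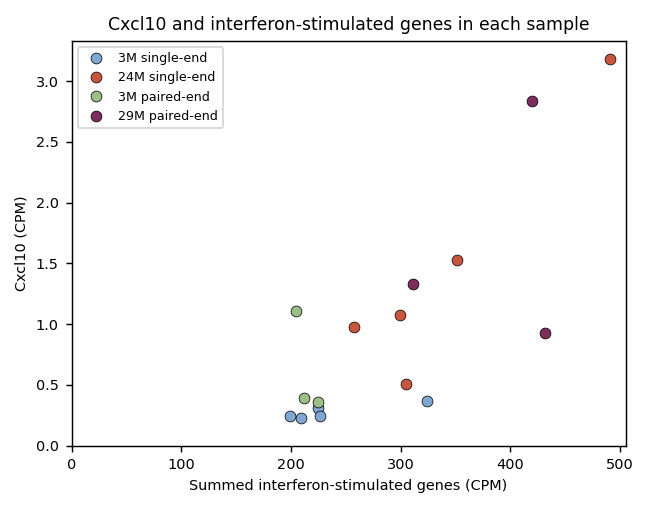
Cxcl10 (CPM) against the summed CPM of 32 interferon-stimulated genes, 1 point per sample, coloured by group, on linear axes from 0. Samples of 24M and 29M spread to the upper right, while a 29M sample at 431 CPM holds less Cxcl10 than a paired-end 3M sample at 205 CPM.

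The inflammatory CC chemokines Ccl3 and Ccl4, which attract macrophages and T cells, and Ccl2 and Ccl12 (ligands of Ccr2, which draws in monocytes) held few counts. Ccl3 stood at 0.364, 1.35, 0.318, 0.102 and 0.198 CPM in the single-end 3M samples and at 0.834, 0.910, 0.979, 0.905 and 0.645 CPM in the 24M samples. At 3M in the paired-end experiment it stood at 0.424, 0.458 and 0.270 CPM, and at 29M at 0.757, 0.951 and 0.872 CPM. All 29M samples lay above their 3M samples, as in 11.9% of all genes tested. At 24M the groups overlapped through single-end 3M replicate 2 alone. The log2 fold change at 24M was 0.93 (SE 0.49, adjusted p = 0.242 by edgeR's quasi-likelihood test), and 1.75 (adjusted p = 0.0138) without that replicate. Both fits kept the filter, which Ccl3 passed through its 24M samples, so they add no support for the same reason as for Cxcl10. With all samples and no filter, the same test gave 0.92 (SE 0.44, adjusted p = 0.278) at 24M. At 29M the gene did not pass the filter, and without it the log2 fold change was 1.11 (SE 0.49, adjusted p = 0.239).

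Ccl4 held 12 counts at most and its groups overlapped at both ages. It stood between 0.0909 and 0.306 CPM (median 0.177) in the single-end 3M samples and between 0.170 and 0.910 CPM (median 0.361) at 24M, and at 0.255, 0 and 0.0899 CPM in the paired-end 3M samples against 0.252, 0.19 and 0.581 CPM at 29M. The 0 counts in paired-end 3M replicate 2 allow a level of up to 0.196 CPM, by counting error only. Without the filter, the log2 fold changes were 1.36 (SE 0.49, adjusted p = 0.129) and 1.66 (SE 0.85, adjusted p = 0.361) in edgeR's quasi-likelihood test.

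Ccl12 stood at 0.5, 0.468, 0.247, 0.357 and 0.247 CPM in the single-end 3M samples (5 to 11 counts) and at 1.11, 0.986, 0.773, 0.452 and 1.29 CPM in the 24M samples (8 to 16 counts). Of the 24M samples, 4 lay above all 3M samples and replicate 5 lay among them. In the paired-end experiment it stood at 0.255, 0.327 and 0.270 CPM at 3M and at 0.757, 0.476 and 0.799 CPM at 29M, without overlap. Of all genes tested, 11.9% had all 29M samples above their 3M samples. The gene passed the filter in neither comparison. Without it, edgeR's quasi-likelihood test gave a log2 fold change of 1.28 (SE 0.34, adjusted p = 0.0342) at 24M and 1.23 (SE 0.56, adjusted p = 0.264) at 29M. DESeq2 gave an adjusted p of 0.0233 at 24M. The adjusted p at 24M was up to 0.0753, without single-end 3M replicate 3, over the alternatives that tested Ccl12, and those that kept the filter add no support for the same reason as for Cxcl10.

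Ccl2 was at or near the limit of detection. In the single-end 3M group, replicate 3 held 31 counts (1.10 CPM) and the other samples held 0 or 1, where 0 counts in replicate 1 allow up to 0.136 CPM. The 24M samples held 8, 7, 2, 5 and 2 counts (0.103 to 0.556 CPM). The paired-end 3M samples held 1 or 2 counts and the 29M samples 1 to 3. The groups overlapped at both ages, and without the filter the log2 fold changes were 0.17 (SE 0.78, adjusted p = 0.919) and 0.82 (SE 1.001, adjusted p = 0.730). At 24M the overlap rests on single-end 3M replicate 3 alone. The other 4 samples of that group averaged 0.0381 CPM, all below the 24M samples, and against them the ratio of mean CPM was 8.87, where it was 1.35 with replicate 3. That ratio compares counts of 0 and 1 with counts of 2 to 8 and was not tested. Ccr2 held at most 17 counts and Ccr3 at most 2 in any sample, and neither was tested with the filter.

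Counted over all 10 members, the mean was higher in the aged group for 9 at 24M and for 8 at 29M. Among the 6 members tested in each comparison it was higher for 5 at 24M and 4 at 29M. These include Ccl3 at 24M and Cxcl10 at 29M, which passed the filter through their aged samples. Of all genes tested, 49.2% at 24M and 49.4% at 29M had a log2 fold change above 0. The members not tested rest on few counts. The aged samples were all above the 3M samples for 2 members at 24M (Cxcl10 and Cxcl16) and for 4 at 29M (Ccl3, Ccl6, Ccl12 and Cxcl16), and below for Cx3cl1 at both. Of all genes tested, 3.15% lay above and 3.42% below at 24M, and 11.9% and 10.5% at 29M. Among the 6 members tested in each comparison these counts were 1 at 24M and 2 at 29M, and the fit of the difference between the 2 effects called none of the 8 members it tested and none of 16055 genes, with 10.4% of genes at an unadjusted p under 0.05. Cx3cl1 was the member under that level. The 2 ages share no 3M libraries, and whether any 3M mice were shared is not stated.

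**Figure D5:**
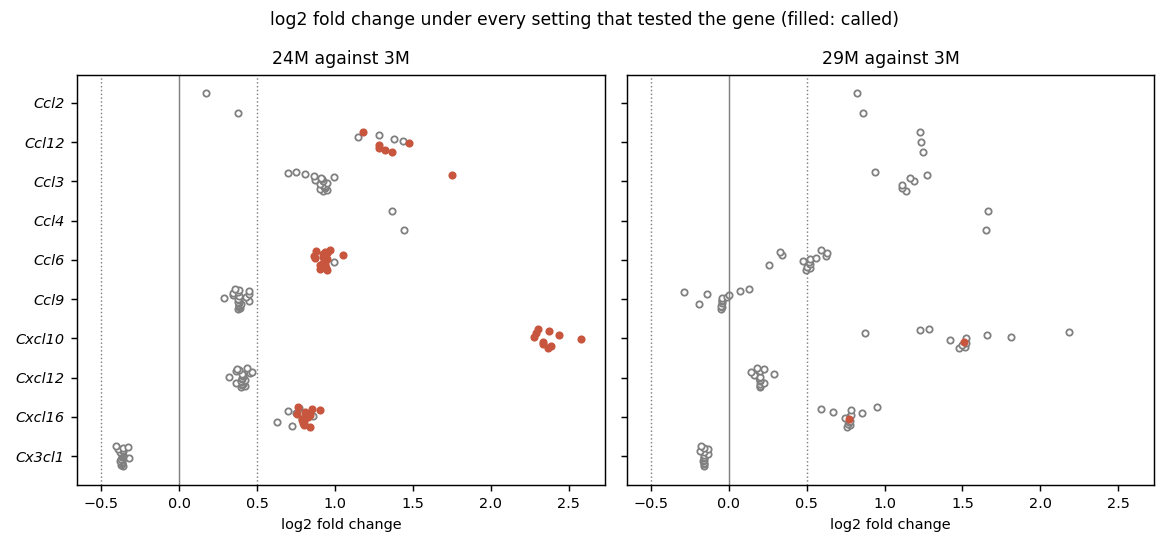
log2 fold change of each chemokine under every setting that tested it, with 1 point per setting, filled where the gene was called; dotted lines mark 0.5 and -0.5. At 24M, Ccl6 is filled nearly throughout, Cxcl16 and Ccl12 in part and Ccl3 at 1 point. Cxcl10 is filled at 24M wherever it was tested, but only 10 of 20 alternatives tested it. Settings that kept the filter add no support for Cxcl10, Ccl12 and Ccl3 at 24M. At 29M a single point each of Cxcl10 and Cxcl16 is filled.

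Most of the wider pathway was too low to test. Of the 30 other chemokine genes, 6 were tested at 24M and 5 at 29M, and none of those was called. The most abundant, Cxcl14, averaged 88.6 and 85.6 CPM at 3M and 24M, and 74.2 and 80.3 CPM at 3M and 29M. Ccl27a, a chemokine with near-identical copies in the mouse genome and therefore uncertain, was lower at 24M under the fold threshold (-0.34, SE 0.09, adjusted p = 0.0454 by edgeR's quasi-likelihood test). Without the filter, Ccl8, a monocyte chemokine beside Ccl12, was called at 24M (2.27, SE 0.52, adjusted p = 0.0182) and Cxcl5, a neutrophil chemokine, at 29M (1.08, SE 0.33, adjusted p = 0.0269). Of the 24 receptor genes, 9 and 7 were tested and none of those was called at either age.

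Downstream of the receptors, none of 25 signalling genes tested was called at 24M and 2 were at 29M. By the adjusted p alone, 2 of them were higher and 2 lower at 24M. Dock2, an activator of Rac in migrating leukocytes, had a log2 fold change of 0.36 (SE 0.12, adjusted p = 0.092) at 24M and 0.86 (SE 0.16, adjusted p = 0.00979) at 29M. Vav1, an exchange factor of blood cells, stood at 0.01 (SE 0.18, adjusted p = 0.972) and 0.66 (SE 0.15, adjusted p = 0.0277). The differences between the effects did not pass the test for either gene (adjusted p = 0.443 and 0.436). The call of Vav1 at 29M held in 5 of 13 alternatives, with adjusted p up to 0.278 and the call lost by DESeq2, and that of Dock2 in 11 of 13, lost without 29M replicate 1 or 3. Of the NF-kB pathway genes, none of 16 was called at 24M and 1 of 14 at 29M. That gene was Icam1, an adhesion molecule for leukocytes, at 0.58 (SE 0.19, adjusted p = 0.0784) at 24M and 1.02 (SE 0.21, adjusted p = 0.0189) at 29M by edgeR's quasi-likelihood test. This call held in 7 of 13 alternatives and was lost by DESeq2, with all 4 groups in 1 fit, and without 29M replicate 1 or 3 or paired-end 3M replicate 2 or 3 (adjusted p up to 0.123).

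Among the leukocytes that chemokines draw in, markers of T and NK cells and of neutrophils were low. The 12 T and NK cell markers, of which Ccl5 is itself a chemokine, summed to 4.15 ± 2.47 and 3.39 ± 0.826 CPM at 3M and 24M (n = 5 each), and to 2.60 ± 0.748 and 4.33 ± 0.465 CPM at 3M and 29M (n = 3 each), with Lck as the most abundant gene and 1 gene tested. Without single-end 3M replicate 4, at 8.30 CPM, the 3M mean was 3.11 CPM, below that at 24M. Cd8b1 was at 0 in every 3M sample and Trbc1 in every aged sample. The 8 neutrophil markers summed to 1.28 ± 0.395 and 3.42 ± 2.04 CPM, and to 0.871 ± 0.288 and 1.88 ± 0.934 CPM. The 8 monocyte markers summed to 100 and 108 CPM, and to 88.8 and 97.1 CPM, most of it Fn1, which other cells express too. The 8 border macrophage markers summed to 28.7 ± 3.66 and 34.4 ± 3.83 CPM, and to 26.9 ± 1.07 and 33.0 ± 8.29 CPM, and none was called. Of the 7 B cell markers, whose sum was mostly Ighm, the 2 tested at 24M and the 1 tested at 29M were called higher, with sums of 16.4 and 33.2 CPM, and of 13.96 and 35.6 CPM. The 5 blood genes, 4 hemoglobin genes and Alas2, summed to 79.1 and 202 CPM at 3M and 24M, and to 75.6 and 132 CPM at 3M and 29M, with Hbb-bs as the most abundant. All 5 had log2 fold changes above 0 at both ages. At 24M none was called, though all 5 had an unadjusted p under 0.05, and the sum averaged 117 CPM without replicate 2. Hba-a1 (0.95), which has a near-identical copy, and Alas2 (0.85) were called higher at 29M. The part of blood or of any of these cells in the chemokine values was not tested.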

How the data were processed

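The authors aligned reads with STAR 2.3.0 to GRCm38.p2, counted them on genes by HTSeq and deposited raw counts without normalization; of the counting settings only the mode is named as changed from the defaults, and its annotation release was not given in the sources used here. The deposited counts were tested here with edgeR 4.0.16 in R 4.3.3 (quasi-likelihood, TMM, default filter on low counts), each aged group against the 3M group of its own experiment, with Benjamini-Hochberg adjustment over all genes tested. Lines that name no gene stayed out of totals and tests; 8.59% to 15.87% of a library's reads fell on no feature. Replicates 1 and 4 of 24M entered as 1 sample, their rounded mean. Genes were named from GENCODE vM21 (36602 of 38355). The code was tested on simulated data. Samples are labelled as separate, and p-values measure the spread between them.

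The members and gene lists were chosen with earlier results of these data known. Named were the 10 members, their receptors, the called genes of the pathway lists (at most 8 a list) and the 5 genes most like each called member; others named were chosen after their values were seen. A few named genes are not reported here. Alternatives were DESeq2 1.42.0, its size factors, other filters, 1 fit of all 4 groups, the replicate number as a block, no fold threshold, the 24M pair kept apart or left out, and each replicate left out; thinning to 9213474 counts, and levels of Ccl2 and marker lists without 1 single-end sample, were added after seeing the data.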

Additional observations from a re-analysis of the deposited data

Results flagged for a closer look

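In 2 of 20 groups of members compared, 1 sample stood far from the rest, where chance gives about 1 in 20. For Ccl2, single-end 3M replicate 3 was the highest of its 5 samples, and its gap to the next sample was 0.953 of the range of the group (31 counts against 1 or 0 in the others). For Ccl3, single-end 3M replicate 2 was the highest, with a gap of 0.79 of the range (26 counts against 9 or fewer).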

How the results depend on the processing

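Against 2 chemokines called higher at 24M, 4 were called with the 24M pair kept apart, by DESeq2, with all 4 groups in 1 fit and without the filter on low counts (Ccl12 and Cxcl10 besides, which the filter leaves out as set), and 1 was called with the pair left out and after thinning. With each replicate left out in turn the count ranged from 1 to 4. It was 1 (Ccl6) without 24M replicate 2, and 4 without single-end 3M replicate 2 or 5. Each count of 4 includes Cxcl10, and Ccl12 or Ccl3, for which the fits that kept the filter add no support. Without the fold threshold, 1 chemokine (Cx3cl1) was called lower. At 29M the count was 2 without the filter and 0 in the other alternatives. Without the filter the pathway lists gave 1 other chemokine at each age, 1 receptor at 24M, 2 shedding and cleavage genes at each age and 2 NF-kB genes at 29M. Ccl6 kept its direction in all alternatives at both ages, as did Cxcl12, Cxcl16 and Cx3cl1. The sign turned for Ccl9 at 29M (-0.29 to 0.13 with a replicate left out), and for the difference between the ages for Cxcl16 (0.041 with the pair left out, -0.22 to 0.14 with a replicate left out). It also turned in that difference for Ccl12 (-0.05, and 0.047 with the pair left out), Ccl3 (0.18, and -0.64 without single-end 3M replicate 2) and, in settings that tested it, Ccl4. The causes were not tested.

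With the replicate number as a block, no chemokine was called at 24M (0 against 2; adjusted p = 0.0602 for Ccl6, 0.188 for Cxcl16, 0.154 for Cxcl12 and 0.0696 for Cx3cl1, which passed at 24M in the other 19 alternatives), and 58 genes were called higher and 25 lower. The numbers do not pair the samples, and not every sample correlated best with its own number: same-numbered samples had correlations of -0.219 to 0.0482 at 24M and of -0.1 to 0.113 at 29M. At 24M, leaving out each replicate in turn and the other alternatives gave 58 to 504 genes called higher and 25 to 371 lower, and at 29M 83 to 368 and 3 to 100. Depth limits Ccl2, Ccl4, Ccl12 and Cxcl10 at 24M and Ccl2, Ccl3, Ccl4 and Ccl12 at 29M, which did not pass the filter there.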

Other observations

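The sample that held 31 counts of Ccl2, single-end 3M replicate 3, also held 25 counts of Ccl7 (0.883 CPM), a related monocyte chemokine that lies beside Ccl2, where the other single-end 3M samples held 0 to 2 counts and the 24M samples 0 to 3. Ccl12, a neighbour of both, was not raised in that sample (7 counts, 0.247 CPM).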
